A study of Mus musculus with 7 samples.

Results

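The genes described here are the phospholipid flippase Atp8a2 and 8 relatives or partners, Atp8a1, Atp8b1, Atp8b2, Atp9a, Atp9b, Atp11a, Atp11b and the accessory subunit Tmem30a. They were taken by name from a table of 26019 genes, and 9 of 9 names were present. The libraries were made by Smart-Seq2, which copies whole polyadenylated RNAs from a few cells, in mouse oocytes freed from secondary follicles, the stage in which a growing oocyte is wrapped in layers of granulosa cells. Mutant oocytes (KO, n = 3 libraries) were set against wild-type oocytes (WT, n = 4 libraries). Both groups were of the C57BL/6J strain, and each library pooled 5 oocytes. The design text counts 3 mice per group. The KO group is named Mfn2-/- in the series' design text and Mfn1-/- in the genotype label, and the age is 8 weeks in the protocol and P1 in the age label. No promoter or Cre line is named in the labels, and the mice behind each library are not given, so any spread is between libraries and may be partly technical.

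P4-ATPases, the flippases, use ATP to move phospholipids from the outer or lumenal leaflet of a membrane to its cytosolic leaflet, and so keep phosphatidylserine and phosphatidylethanolamine on the cytosolic side. Most of them need a small subunit of the CDC50 family, encoded by the Tmem30 genes, to leave the endoplasmic reticulum. Scramblases undo the asymmetry, and phosphatidylserine exposed on the surface marks dying cells for uptake. Atp8a2 is best known from neurons and photoreceptors, and loss of it in mice causes degeneration of axons.

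Atp8a2 was selected on its difference in level between KO and WT in these same libraries, and the other members by family. Their differences between the groups are therefore given as a description, with a standard error (SE) and no p. "Called" means an adjusted p under 0.05 in limma over all 19227 genes tested. All 9 members passed the filter on low values, some of them with only a few reads.

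The coding sequence around the phosphorylation site is shown to let a reader see how alike the flippase RNAs are and where reads could tell them apart. The 60 bases below lie in the longest coding transcript of each gene in GENCODE M21 (GRCm38), 5′ to 3′, and the capitals mark the 15 bases that code for the conserved motif whose aspartate takes the phosphate from ATP.
Atp8a2: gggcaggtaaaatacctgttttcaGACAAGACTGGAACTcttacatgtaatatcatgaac
Atp8a1: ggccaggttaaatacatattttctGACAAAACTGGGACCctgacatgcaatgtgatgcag
Atp9a: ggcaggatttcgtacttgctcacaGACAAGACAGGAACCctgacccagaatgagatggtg
Atp11a: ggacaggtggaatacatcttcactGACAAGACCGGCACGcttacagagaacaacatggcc
Atp11b: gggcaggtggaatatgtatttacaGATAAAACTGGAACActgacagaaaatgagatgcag
The Atp8a2 window is coding bases 1138 to 1197 of 3444 on chromosome 14, and the Atp8a1 window 1201 to 1260 of 3492 on chromosome 5. The Atp9a window (1321 to 1380 of 3315) lies on chromosome 2, the Atp11a window (1216 to 1275 of 3561) on chromosome 8 and the Atp11b window (1195 to 1254 of 3525) on chromosome 3. In this window Atp8a1 differed from Atp8a2 at 14 bases, Atp11a and Atp11b at 18 each and Atp9a at 25. Over the whole coding sequence 67.3% of 3424 aligned bases were identical between Atp8a1 and Atp8a2. At the read length of 75 bases, 0 of the stretches of any member's transcripts occurred in another P4-ATPase or CDC50 gene. Other genes held 14.2% of the stretches of Atp8a2. Most of these belong to Gm19716, a transcribed processed pseudogene annotated on the opposite strand inside the last exon of Atp8a2 (1999 stretches), and to Nupl1 (168 stretches). Neither overlap touched coding bases of Atp8a2. The libraries carry no strand, and Gm19716 was not analysed here. Of the other members, Atp11a shared 1.81% of its stretches with other genes, Atp8a1 shared 0.0275% and the rest shared 0.

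The libraries held 6676076 to 8343915 reads in genes. Mfn2 had 7.27, 4.55 and 7.66 normalised counts in KO libraries, against 35.3, 35.1, 15.0 and 29.2 in WT libraries (log2 fold change -1.94, SE 0.40; limma adjusted p = 0.00571). Mfn1 had 330.3 ± 19.9 in KO and 289 ± 36.3 in WT (SD, n = 3 and 4). A normalised count is the number of reads of a gene divided by a size factor close to 1. Oocyte markers were abundant in every library, with 13 genes summing to 216691 to 370663 in KO and 177683 to 247903 in WT. The granulosa marker Inha was at 54.5, 395 and 338 in KO libraries 1 to 3, against 11.9 to 66.7 in WT. Of 14 granulosa markers tested 11 had a positive log2 fold change. The median over the 14 was 1.27. An unadjusted p under 0.05 was reached by 10 of the 14, against 21.8% of all genes tested. Among these 10 were Cyp19a1 and Esr2, which were called as lower in KO. None of the 11 with a positive log2 fold change was called. Gja1, for example, had 2.73, 11.8 and 14.2 in KO and 0 to 6.54 in WT, and Hsd17b1 had 4.54, 22.7 and 15.3 in KO and 0 to 8.58 in WT. The sum of all 16 markers, in which Esr2 was the most abundant, overlapped at 1192 to 1620 in KO and 1321 to 1554 in WT. Foxl2 and Amh reached at most 3.64 and 8.18, both in KO 2. The 2 stromal markers in the table summed to 0 to 4.55 in KO and 0.935 to 8.52 in WT. The 4 leukocyte markers, nearly all C1qb, summed to 183 to 275 in KO and 527 to 569 in WT. The other leukocyte markers did not follow C1qb. Cd68 averaged 18.4 in KO and 12.4 in WT, and C1qa and Adgre1 each had reads in only 1 library. The covariate used below is the mean log2 level of the 16 granulosa markers, in which each counts equally. Since most markers ran higher in KO, it follows the groups in part, and fits adjusted for it cannot separate marker level from group. The part of these other RNAs in the results below was not tested.

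Atp8a2 RNA stood far lower in KO oocytes than in WT oocytes. Atp8a2 (ENSMUSG00000021983.16, GRCm38 chromosome 14, 59638540 to 60197179, minus strand) had 106, 88.2 and 97.4 normalised counts in KO libraries, against 537, 447, 533 and 313 in WT libraries. The groups did not overlap: the highest KO library held 106 and the lowest WT library 313. The means were 97.3 ± 9.05 in KO and 457 ± 105 in WT, that is, 78.7% lower in KO. On the log2 scale the fold change was -2.19 (SE 0.19). These are the values for which the gene was chosen. The counts behind them were 89 to 117 reads per KO library and 289 to 570 per WT library. WT varied more than KO, with a highest library 1.71 times the lowest in WT and 1.21 times in KO. With KO 1 as the only KO library the log2 fold change was -2.06, and it was -2.27 when the fit was adjusted for granulosa marker level. Both refits use the values the gene was selected on, so they too only describe it. In a pool of oocytes fewer cells that hold an RNA and less RNA per cell cannot be told apart.

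Atp8a1, the closest relative of Atp8a2 and a phosphatidylserine flippase of endosomes, had near-equal levels in the groups. It had 221, 200.006 and 235 normalised counts in KO libraries, against 209, 216, 224 and 240.5 in WT libraries. The ranges overlapped almost fully, and the log2 fold change was -0.03 (SE 0.16). The ratio of Atp8a2 to Atp8a1, each per kilobase of annotated exons, was 0.413 ± 0.0315 in KO and 1.93 ± 0.517 in WT. Atp8a2 RNA thus lay below that of Atp8a1 in each KO library and above it in each WT library, down to 1.21 in WT 4. The ratio, too, only describes the values for which Atp8a2 was chosen.

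**Figure D1:**
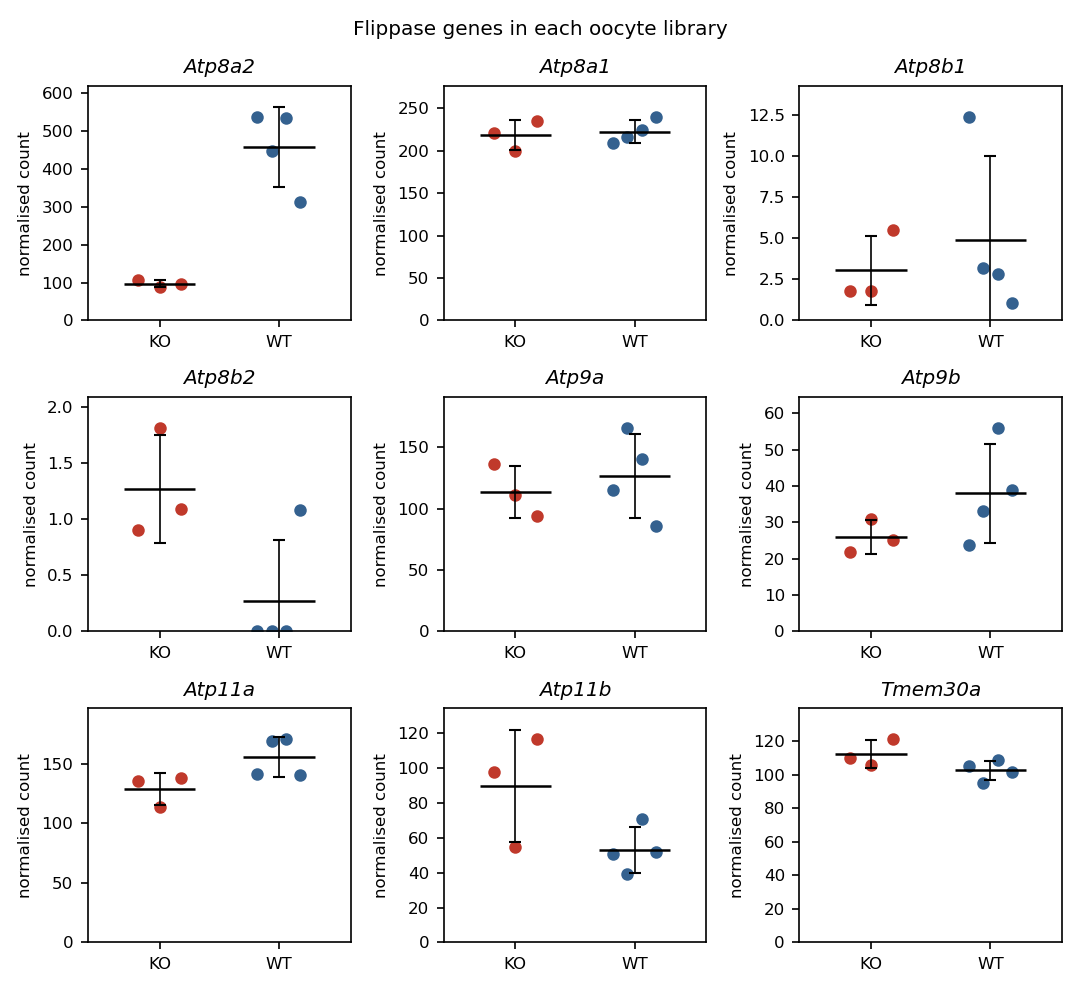
Normalised counts (vertical axes, each from 0) of the 9 flippase genes in KO (red) and WT (blue) libraries, with 1 point per library and bars for the mean and SD. Atp8a2 is at 88.2 to 106 in KO and 313 to 537 in WT, while the points of Atp8a1 and Tmem30a overlap.

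Of the class that includes the transporter mutated in human hereditary cholestasis, little RNA was found. Atp8b1, the counterpart of that human gene, had 1.82, 1.82 and 5.47 normalised counts in KO libraries, against 12.4, 3.20, 2.80 and 1.08 in WT libraries, which overlap. Atp8b2 had 1 to 2 reads in KO libraries and 0 to 1 in WT libraries. Both lie near the limit of detection, and their log2 fold changes of -0.31 (SE 0.64) and 0.90 (SE 0.63) carry wide errors.

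Atp9a and Atp9b, flippases of endosomes and the trans-Golgi network that do not need a CDC50 subunit, overlapped between the groups. Atp9a had 136, 111 and 94.1 in KO libraries, against 115, 166, 140.2 and 85.6 in WT libraries (log2 fold change -0.13, SE 0.23). Atp9b had 21.8, 30.9 and 25.2 in KO libraries, against 23.8, 33.0, 56.1 and 39.0 in WT libraries (log2 fold change -0.48, SE 0.32). An antisense gene, AC117949.2, lies across Atp9b at 294 in KO and 416 in WT, and although the annotated exons share no 75-base stretch, reads without strand cannot always tell the pair apart.

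Atp11a and Atp11b, which carry phosphatidylserine inward at the plasma membrane and on endosomes, lay on opposite sides of equal levels, and neither was called with all libraries. Atp11a had 135, 114 and 138 normalised counts in KO libraries, against 141, 169, 171 and 141 in WT libraries. The groups only just failed to overlap, and the log2 fold change was -0.27 (SE 0.18). Atp11b had 98.1, 54.5 and 117 in KO libraries, against 50.5, 39.4, 71.0 and 52.0 in WT libraries. KO 1 and KO 3 lay above all WT libraries and KO 2 within them, with a log2 fold change of 0.71 (SE 0.27). Without KO 2 Atp11b was called, at a log2 fold change of 1.03.

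Tmem30a, the CDC50 subunit that most flippases of this family need, had 109.9, 105 and 121 normalised counts in KO libraries, against 105, 94.8, 108 and 102 in WT libraries. The groups overlapped, and the log2 fold change was 0.13 (SE 0.19).

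Counted together, 1 of the 9 members, Atp8a2, was called, and it was lower in KO. An unadjusted p under 0.05 was reached by 2 of the 9 members, against 21.8% of all genes tested. Of all genes tested 6.71% were called, 3.09% as higher in KO and 3.63% as lower in KO. KO libraries lay wholly below WT libraries for 2 members, Atp8a2 and Atp11a, and wholly above them for 0. Over all genes tested these shares were 9.83% below and 9.37% above, 19.2% in all. Because Atp8a2 chose the list, these counts only describe it. The median log2 fold change was -0.13 over the members and -0.01 over all genes tested.

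Per kilobase of annotated exons, Atp8a2 ranked first of the 9 members in WT and below 5 others in KO. In KO the order was Tmem30a (19.9 ± 1.46), Atp9a (19.2 ± 3.59), Atp8a1 (15.3 ± 1.24), Atp11a (11.6 ± 1.19), Atp11b (9.80 ± 3.49) and Atp8a2 (6.31 ± 0.587 normalised counts per kilobase, SD, n = 3). In WT the order was Atp8a2 (29.7 ± 6.80), Atp9a (21.4 ± 5.82), Tmem30a (18.1 ± 1.03), Atp8a1 (15.6 ± 0.951), Atp11a (14.0 ± 1.52) and Atp11b (5.80 ± 1.43; SD, n = 4). Atp9b, Atp8b1 and Atp8b2 came last in both groups. Most neighbours among these 6 overlapped in their ranges. In KO the range of Atp8a2 (5.72 to 6.90) overlapped that of Atp11b (5.94 to 12.8), while Atp8a1 (14.0 to 16.5) and Atp11a (10.2 to 12.4) were apart. In WT the range of Atp8a2 (20.3 to 34.8) overlapped that of Atp9a (14.5 to 28.1), while Atp11a (12.6 to 15.3) and Atp11b (4.29 to 7.74) were apart. Per kilobase of coding sequence Atp8a2 again ranked first of the members in WT, but it ranked 5 in KO, just above Atp11b, and Atp9a moved to rank 5 in WT and 4 in KO. There the WT range of Atp8a2 (90.9 to 156) overlapped that of Tmem30a (86.8 to 99.3). In KO the coding range of Atp8a2 (25.6 to 30.9) lay within that of Atp11b (15.5 to 33.2). The shift of Atp8a2 in these orders restates the values for which it was chosen.

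**Figure D2:**
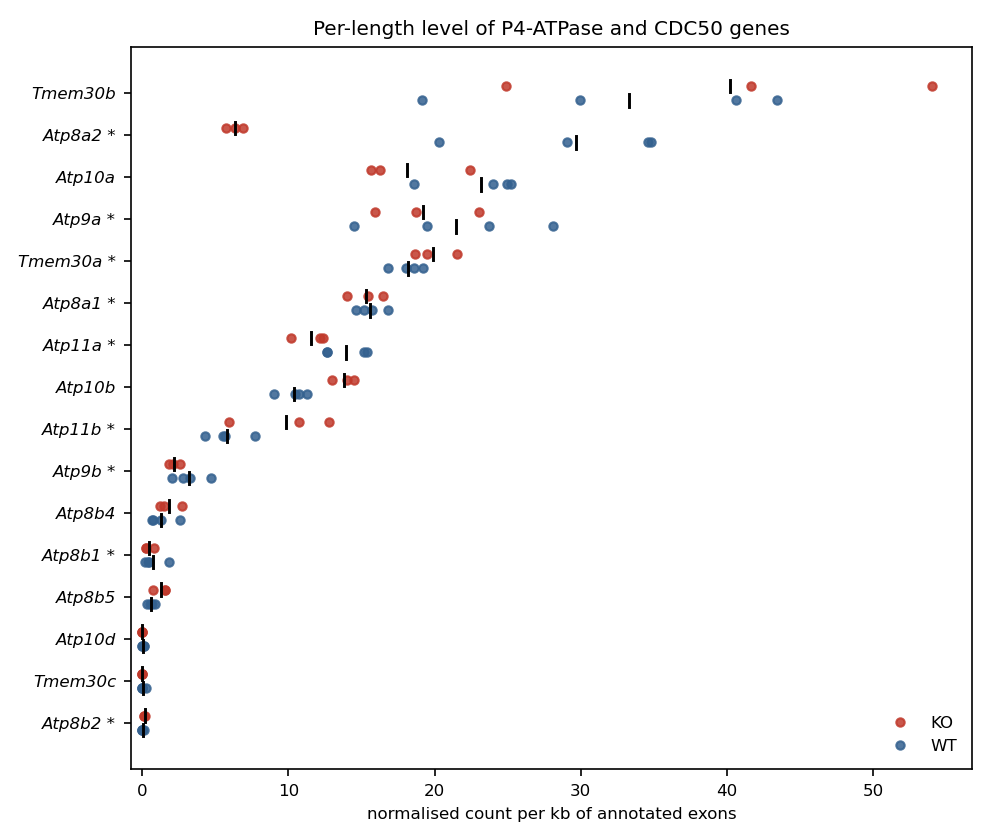
Normalised count per kilobase of annotated exons (horizontal axis) of the P4-ATPase and CDC50 genes examined, with 1 point per library (KO red, above WT blue), a black tick at each mean and an asterisk for the 9 members. Atp8a2 is the gene whose KO points, 5.72 to 6.90, lie far to the left of its WT points, 20.3 to 34.8.

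The rest of the family was examined for the same comparison. Of 8 further P4-ATPase and CDC50 genes examined 7 were in the table and 5 were tested. Of these 0 were called by limma and 0 by edgeR or DESeq2, with 1 at an unadjusted p under 0.05, against 21.8% of all genes tested. That gene was Atp10b, with 137, 127 and 142 normalised counts in KO libraries, against 88.7, 111, 103 and 105 in WT libraries (log2 fold change 0.41, SE 0.19; limma adjusted p = 0.207). KO libraries lay wholly above WT libraries, and 4.25% of the stretches of Atp10b lie in antisense and other genes of its locus. Atp10a had 125, 87.3 and 90.8 in KO libraries, against 141, 134, 139 and 104 in WT libraries (-0.36, SE 0.21; limma adjusted p = 0.317). Tmem30b, another CDC50 gene, overlapped too, at 120 ± 43.8 in KO and 99.5 ± 33.2 in WT (0.27, SE 0.30; limma adjusted p = 0.660). Atp8b4 and Atp8b5 averaged 12.1 and 8.13 in KO, against 8.64 and 3.76 in WT, with limma adjusted p of 0.570 and 0.313. Atp10d and Tmem30c had 0 reads in KO and at most 1.07 normalised counts in a WT library.

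Summed per kilobase of annotated exons, the 13 P4-ATPase genes analysed overlapped between the groups while the share of Atp8a2 did not. The sum was 99.98 ± 11.5 in KO and 126 ± 15.7 in WT, and without Atp8a2 it was 93.7 ± 10.9 in KO and 96.2 ± 10.6 in WT (SD, n = 3 and 4). Atp8a2 held 6.21%, 6.49% and 6.28% of the sum in KO libraries, against 27.6%, 21.7%, 24.7% and 19.5% in WT libraries. Atp8a1 held 13.9% to 16.4% in KO and 11.2% to 16.2% in WT, which overlap. With coding length in place of exon length Atp8a2 held 11.1% ± 0.318 in KO and 36.4% ± 5.14 in WT. The sums with coding length did not overlap, at 225 to 275 in KO and 301 to 405 in WT. Without Atp8a2 they were 226 ± 23.2 in KO and 228 ± 20.6 in WT. Because Atp8a2 was chosen for its difference in these libraries, its share and the sums that hold it restate that difference.

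**Figure D3:**
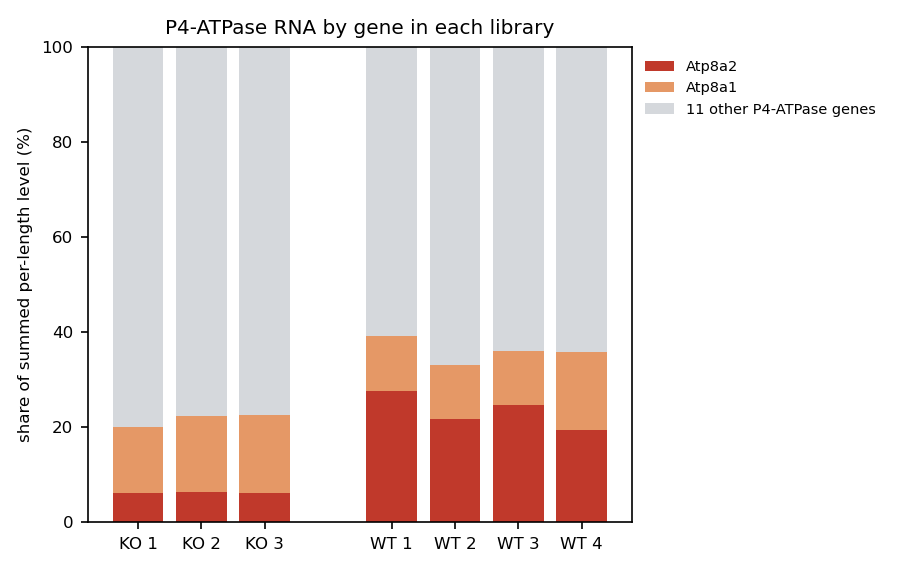
Share of the summed per-length level of 13 P4-ATPase genes (vertical axis, %) held by Atp8a2, Atp8a1 and the 11 other genes in each KO and WT library. The red Atp8a2 part is 6.21% to 6.49% in KO libraries and 19.5% to 27.6% in WT libraries.

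Scramblases and the synthesis of the lipids that flippases carry had no called gene. Of 15 scramblase genes tested, 0 were called by limma and 0 by edgeR or DESeq2, with 2 at an unadjusted p under 0.05 (all genes 21.8%) and a median log2 fold change of 0.33. The pair was Tmem41b of the endoplasmic reticulum, at 777 ± 174 in KO and 990 ± 106 in WT (limma adjusted p = 0.163), and Vps13a, a lipid transfer protein that binds the scramblase XK, at 823 ± 152 in KO and 646 ± 17.3 in WT (limma adjusted p = 0.172). Of 19 genes for synthesis and transfer of phosphatidylserine and phosphatidylethanolamine, 0 were called by limma and 0 by edgeR or DESeq2, with 8 at an unadjusted p under 0.05 (all genes 21.8%) and a median of 0.11. The smallest p belonged to Lpcat4, a lysophospholipid acyltransferase, with 221, 200.006 and 99.6 in KO libraries, against 249.8, 271, 272 and 282 in WT libraries (log2 fold change -0.71, SE 0.22; limma adjusted p = 0.0626). Lpcat4 was called without KO 1 (limma adjusted p = 0.0150) and with no filter on low values (0.0110). Osbpl5, which exchanges phosphatidylserine for another lipid at contacts of the endoplasmic reticulum with the plasma membrane, had 30.0, 29.1 and 19.7 in KO libraries, against 0.953, 8.52, 14.0 and 13.0 in WT libraries (1.76, SE 0.59; limma adjusted p = 0.0904). Osbpl5 was called with a pseudocount of 5 (limma adjusted p = 0.0412) and with no filter (0.0116).

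Among transporters that work in the opposite direction to flippases, 2 of 9 ABC lipid exporters were called as lower in KO and 0 as higher. Of all genes tested 3.63% were called as lower and 3.09% as higher. The log2 fold change was negative for 6 of the 9 and positive for 3, with a median of -0.30. An unadjusted p under 0.05 was reached by 3, against 21.8% of all genes tested. KO libraries lay wholly below WT libraries for 3 and wholly above them for 2. Over all genes tested these shares were 9.83% and 9.37%. Abcb4, a phosphatidylcholine floppase best known from the bile canaliculus, had 141, 99.1 and 137 normalised counts in KO libraries, against 252, 256, 288 and 274 in WT libraries. The groups did not overlap, and the log2 fold change was -1.10 (SE 0.18; limma adjusted p = 0.000900). Abcb1b, a multidrug efflux pump gene, had 511, 438 and 466 in KO libraries, against 691, 653, 656 and 716 in WT libraries (-0.53, SE 0.14; limma adjusted p = 0.0239). The genes lie beside each other on chromosome 5 (Abcb1b 8798147 to 8866315, Abcb4 8893717 to 8959231), and each shares stretches with their paralog Abcb1a, 9.01% of the stretches of Abcb1b and 1.49% of those of Abcb4 being found in other genes. The call of Abcb4 was kept without any 1 of the 7 libraries, and lost with KO 1 as the only KO library (log2 fold change -0.92, adjusted p = 0.0512) or with granulosa marker level as a covariate (-0.88, adjusted p = 0.588). That of Abcb1b was lost without KO 2 or any 1 WT library (adjusted p up to 0.0873), with KO 1 alone (-0.41, adjusted p = 0.391) and with the covariate (-0.42, adjusted p = 0.824).

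Of 13 endosomal genes that work with flippases or on the same membranes, 1 was called as higher in KO and 1 as lower. Of all genes tested these shares were 3.09% and 3.63%. The log2 fold change was positive for 10 of the 13 and negative for 2, with a median of 0.14 (all genes -0.01). An unadjusted p under 0.05 was reached by 4, against 21.8% of all genes tested. Vps35, the core of the retromer, rose, with 1195, 1478 and 1441 in KO libraries, against 1099, 1015, 814 and 951 in WT libraries (log2 fold change 0.50, SE 0.14; limma adjusted p = 0.0333). Arl5a, a small GTPase of the trans-Golgi network, fell, with 134, 89.1 and 113 in KO libraries, against 161, 180.0, 190 and 196 in WT libraries (-0.71, SE 0.19; limma adjusted p = 0.0292). Vps35 lost its call without KO 2, KO 3, WT 2, WT 3 or WT 4 (adjusted p up to 0.121) and Arl5a without KO 2, WT 2, WT 3 or WT 4 (up to 0.130). With KO 1 alone Vps35 was at 0.31 (adjusted p = 0.562) and Arl5a at -0.43 (0.539), and with the covariate Vps35 was at 0.29 (0.874) and Arl5a at -0.32 (0.907), none of them called. Of the stretches of Vps35, 1.09% lie also in Orc6. Of 13 other P-type ATPases examined, the ion pumps and their kin, 0 were called by limma and 0 by edgeR or DESeq2, with 1 at an unadjusted p under 0.05. This share, too, stands beside 21.8% of all genes. The gene was the Golgi calcium and manganese pump Atp2c1, at 1256 ± 74.9 in KO and 965 ± 96.6 in WT (limma adjusted p = 0.0817). Next by p was Atp2c2, its paralog, at 249 ± 65.4 in KO and 317 ± 71.8 in WT (limma adjusted p = 0.319), which overlap. Of the 13 P-type ATPases, 11 had a negative log2 fold change and 2, Atp2c1 among them, a positive one, with a median of -0.11.

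**Figure D4:**
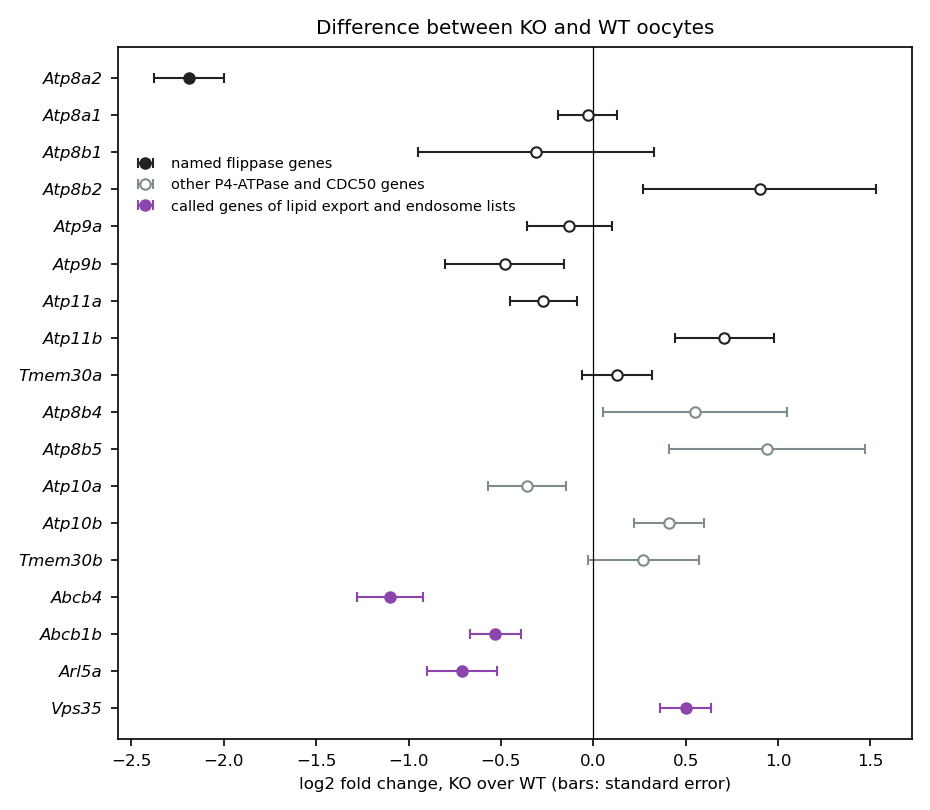
Log2 fold change of KO over WT (horizontal axis) with its standard error for the 9 members (black), the 5 other tested P4-ATPase and CDC50 genes (grey) and the called genes of the ABC exporter and endosome lists (purple). Filled points are called genes, and Atp8a2 at -2.19 lies farthest from 0.

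No tested gene beside Atp8a2 on chromosome 14 was called. Within 1 Mb of either end lay 23 other rows, of which 17 were tested. Of these 0 were called by limma and 0 by edgeR or DESeq2, and 0 had an unadjusted p under 0.05, which 21.8% of all genes had. Their log2 fold changes ran from -0.34 to 1.05. Nupl1, a nuclear pore gene that overlaps the upstream exons of Atp8a2 on the same strand, had 341 ± 7.40 normalised counts in KO and 293 ± 24.2 in WT (log2 fold change 0.22, SE 0.15; limma adjusted p = 0.425). KO libraries of Nupl1 lay wholly above WT libraries, as they did for 9.37% of all genes tested. Nupl1 shares 241 of the 15410 exonic bases of Atp8a2.

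**Figure D5:**
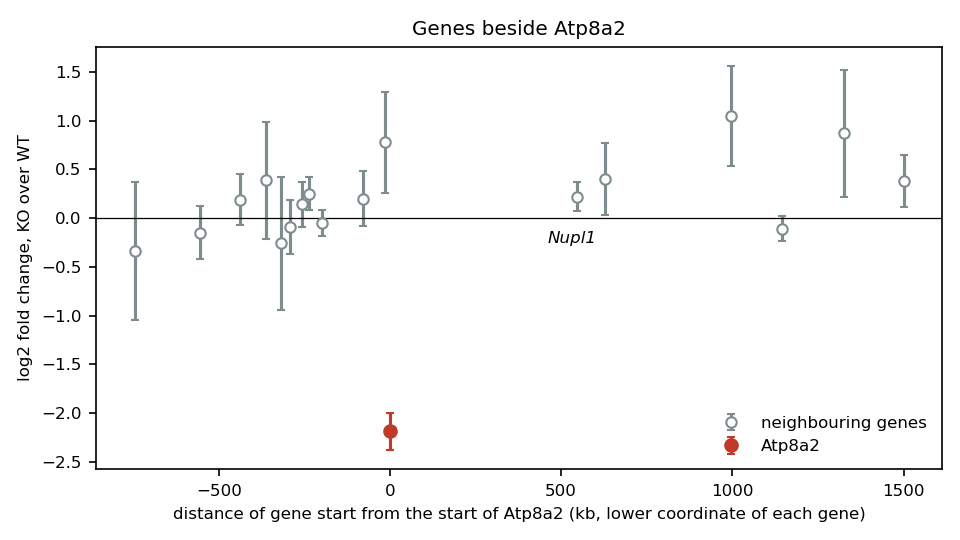
Log2 fold change of KO over WT with its standard error (vertical axis) against the distance of each gene's lowest coordinate from that of Atp8a2 in kilobases (horizontal axis), for Atp8a2 (red) and the 17 tested genes within 1 Mb. The neighbours lie between -0.34 and 1.05, Atp8a2 at -2.19.

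The genes whose profile over the 7 libraries was most like that of Atp8a2 were sought among 9911 genes averaging at least 20 normalised counts, by the root-mean-square difference of log2 profiles centred on each gene's mean. Nearest was Dnajc5b, a gene of the cysteine string protein family, with 20.9, 16.4 and 20.8 in KO libraries, against 122, 74.6, 99.1 and 68.2 in WT libraries, a difference of 0.146. It was followed by Cdh17, a cadherin (0.256), Klk15, a kallikrein-family protease gene (0.276), Popdc2 (0.289) and Actg2, a smooth muscle actin (0.290). Their KO means were 16.7, 6.00, 43.0 and 12.4, against WT means of 73.0, 32.7, 171 and 48.9. Since they were picked for a like profile, their difference between the groups is a description.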

How the data were processed

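The authors deposited 1 normalised signal value per gene and library, in the form of gene counts divided by 1 size factor each. In each library they were whole multiples of 1 step. After division by that step at least 99.9% of values lay within 0.05 of a whole number, and these whole numbers served as reads. Per the submitters' processing notes, cutadapt, FastQC, STAR, DESeq and DESeq2 were used, with build GRCm38 (mm10). The counter was not given in the sources used here.

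Limma 3.58.1 (R 4.3.3) gave the main test, with an intensity trend and robust variances on log2(value + 1). Genes entered it that reached a value of 1 in 3 or more libraries, and the threshold was a Benjamini-Hochberg adjusted p of 0.05. The test was checked on simulated data. The pseudocount pulls fold changes of low genes toward 0, while averaging log values can also set them farther from 0 than a count model does. edgeR 4.0.16 on recovered reads called 1334 genes against 1291 by limma, and DESeq2 1.42.0 called 1474. Exon lengths, gene ends and transcripts came from GENCODE M21. Since the mice behind each library are not named, p-values reflect the spread between libraries only, which may be technical.

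The members and gene lists were chosen with earlier results of these data known, and 2 genes of the lists are not reported here. The genes named are the members, the rest of the family, each called gene of a list or else up to 2 with the smallest p, called neighbours of Atp8a2, Nupl1 as the gene that overlaps Atp8a2, and the 5 most like profiles outside names of the Gm, Rik and ps type. Alternatives were other pseudocounts, filters, tools and scalings, libraries left out, a granulosa marker covariate, a replicate block, coding length and a 500 kb window.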

Additional observations from a re-analysis of the deposited data

Results flagged for a closer look

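Among 34 genes checked for a WT library far from the other 3, 1 stood out, and chance flags about 1 in 20 such groups. Atp8b2 had 1.08 normalised counts in WT 4 and 0 in WT 1 to 3, which is 1 read.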

How the results depend on the processing

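Atp8a2, selected on this difference, had log2 fold changes of -2.37 to -2.06 over the 18 alternatives run and was called in each, which describes the values that chose it. No other member was called under any of them except Atp11b without KO 2, so that 1 to 2 members were called with 1 library left out. Over all genes the number called was 594 to 1767 with 1 library left out, in place of 1291 (604 without KO 2, 821 without KO 3, 728 without WT 1, 710 without WT 2, 594 without WT 3). It was 98 with KO 2 and KO 3 both left out, where the lone KO library is assumed to vary like WT, and 2 when adjusted for granulosa marker level, 1 of them Atp8a2. That covariate follows the groups in part, so the fit cannot separate granulosa marker level from group. Abcb4, for example, moved from -1.10 to -0.88 while its limma adjusted p went from 0.000900 to 0.588. The cause of the lost calls was not tested. Deviations of same-numbered libraries from their group means correlated at -0.140, 0.0385 and 0.0258, and those of differently numbered libraries at -0.112 to 0.0856. With 3 libraries per group this cannot tell whether replicate numbers pair the libraries. The fit with the replicate block called 1010 genes and, of the members, only Atp8a2; Osbpl5 was called in it (adjusted p = 0.0490), and Abcb1b (0.0808), Vps35 (0.0907) and Arl5a (0.0814) were not. Low counts limit Atp8b1 and Atp8b2: the log2 fold change of Atp8b2 was 0.25 to 2.06 over the alternatives in which it passed the filter, and Atp8b1 was at 0.21 without WT 1 and -1.43 with the covariate, in place of -0.31. Atp9a, at -0.13, was at 0.14 with KO 1 alone and 0.27 with the covariate, and Atp11a, at -0.27, was at -0.09 with the covariate. Atp8a1, at -0.03, ran from -0.08 to 0.05. Of the cell type markers none of these was called: Dcn had a log2 fold change of -0.44, of -0.89 to 0.04 (without KO 3) with 1 library left out and of 0.50 with the covariate, and Cyp17a1 of 0.24, of -0.06 (without WT 4) to 0.81 with 1 left out and of -0.06 with the replicate block. Kdr was at -0.81, at 0.49 with KO 1 alone and at 0.50 with the covariate. Pecam1 was at -0.10, at -0.24 to 0.02 (without KO 3) with 1 left out, at 0.17 with KO 1 alone and at 0.20 with the covariate. Atp2c2, not called, was at -0.35, at -0.56 to -0.22 with 1 left out, at 0.06 with KO 1 alone and at 0.18 with the covariate. Called markers were Cyp19a1 (-1.23), Esr2 (-0.50) and C1qb (-1.31), lower in KO, and Dazl (0.40), higher in KO. With 1 library left out Esr2 kept its call only without KO 3 and Dazl only without KO 1, while Cyp19a1 and C1qb kept theirs throughout. None of these called markers was called with the covariate, where Cyp19a1 was at -0.52 (limma adjusted p = 0.851) and C1qb at -1.12 (0.278). With KO 1 alone Cyp19a1 was at -0.85. Mfn2, at -1.94, was not called with KO 1 alone (-1.77, adjusted p = 0.158) or with the covariate (-1.56, adjusted p = 0.731). With coding length, 7 of the 8 neighbouring pairs of members in the WT order kept their order. No gene within 500 kb of Atp8a2 was called.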
